A study of Mus musculus with 1 sample.

Results

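The genes described here encode the proteins of the cytosolic ribosome. They were taken as the rows of a single-cell count table of mouse bone marrow whose name starts with Rpl or Rps followed by a digit, or is Rplp0, Rplp1, Rplp2 or Rpsa, without names holding -ps and without the S6 kinase genes. That gave 93 members of 25661 genes, 54 named for the large and 39 for the small subunit, and together they held 19.2% of all counts. By the GENCODE M21 annotation 85 members are protein coding, Rpl32l, Rpl6l, Rps12l1, Rps3a2 and Rps3a3 are processed pseudogenes, Rpl37rt and Rps4l are transcribed processed pseudogenes, and Rps23rg1 was not found. Rps19bp1 matches the naming rule but encodes a binding protein of Rps19, and Rpl7l1 encodes a nucleolar relative of Rpl7 rather than a canonical subunit. Another 275 rows with -ps names held 2.09% of all counts. Reads of near-identical copies may have been split between rows, so the values of Rps12l1, Rps3a2, Rps3a3, Rpl6l, Rpl37rt, Rps27rt and Rps4l are uncertain.

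The library pooled sorted marrow cells of 1 naïve mouse and 1 mouse injected with LPS, the bacterial endotoxin lipopolysaccharide. The study took cKit+Lin- progenitors and GMP-MoPs from both mice and cMoPs (common monocyte progenitors) from the naïve mouse, and it asked how GMP-MoPs relate to other progenitors. Each of 5 populations carried its own streptavidin hashtag, a DNA barcode read with the mRNA: tags A965 and A963, loaded at 15000 cells each, and tags A961, A962 and A964, loaded at 100 cells each. The labels do not say which population or mouse a tag marks, and they give no strain, sex or age, so no tag is given a treatment here.

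After filtering, 5567 A965 cells, 4716 A963 cells, 68 A961 cells, 104 A962 cells and 73 A964 cells remained, with a median of 27205 counts per A965 cell and 20430.5 per A963 cell. No barcode number occurred under more than 1 tag. Cells were gated on counts of lineage marker genes, none of them a member, and a gate carries the name of the marker list that chose it. The late neutrophil gate is so named for its high granule gene counts alone. Maturity and exit from the cell cycle were not part of that gate. Across 12 gates with at least 50 cells of A965 and of A963 lay 8449 of their 10283 cells. The label cKit+Lin- names a sort on surface protein, and the mRNA of Kit, the gene of the sorting receptor, differed widely between gates. Kit reached 1.83 CPM (counts scaled to library total) in A965 and 14.1 CPM in A963 cells of the late neutrophil gate. The stem gate had 110 CPM and 122 CPM, and all cells together 14.2 CPM and 24.4 CPM. The late neutrophil gate held 1357 A965 and 1228 A963 cells, and whether they carried the protein cannot be read from mRNA. S100a8, a neutrophil gene, was at 92883 CPM in late neutrophils of A965 and at 94116 CPM in those of A963, and still at 1953 to 3238 CPM in the lymphoid, erythroid, GMP (granulocyte-monocyte progenitor) and stem gates of both tags, and the part of free RNA in the values below was not tested. Xist, expressed from the inactive X chromosome, had 11.8 CPM in A965 cells and 611 CPM in A963 cells, while Y-linked genes summed to 79.5 CPM in A965 and 6.46 CPM in A963. Sex, mouse, treatment and sorted population cannot be told apart between these 2 tags. With 1 library and 1 tag per population there was no replicate, so no test was possible. Intervals are exact 95% counting intervals and cover counting error only. A gene is called higher or lower where CPM with 10 added differed at least 1.5-fold.

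Ribosomes read mRNA into protein, and growing cells spend much of their mRNA on the ribosome's own parts. Ribosomal protein mRNAs in mammals typically begin with a C followed by a run of pyrimidines, the terminal oligopyrimidine (TOP) motif, through which mTOR signalling controls their translation together. In the marrow, cells that leave the cycle to become neutrophils are known to wind down ribosome production, and too little of single ribosomal proteins, such as RPS19 in human Diamond-Blackfan anaemia, impairs red cell formation.

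The members took their largest part of the counts in stem, lymphoid and erythroid cells and their smallest in late neutrophils. In cells thinned to 8800 counts, the median part of counts in the members was 29.9% in A965 and 29.3% in A963 cells of the lymphoid gate, 27.8% and 28.3% in the low-globin erythroid gate, and 26.1% and 26.3% in the high-globin erythroid gate. GMP-gated cells had 23.6% in A965 and 26.2% in A963, Mpo-high monocyte cells 21.3% and 23.9%, and monocyte cells 18.7% and 21.4%. The dendritic gates stood near the monocytes, with 23.6% in A965 and 21.1% in A963 for conventional and 21.6% and 17.1% for plasmacytoid dendritic cells. The neutrophil gates were lowest, with 14.8% in A965 and 16.8% in A963 for early, 11.7% and 12.5% for intermediate, and 8.24% and 5.99% for late neutrophils. The stem gate, to which the others are compared, had 29.8% in A965 and 29.9% in A963. Late neutrophils also had fewer member counts per cell: a median of 2100 in A965 and 983 in A963, against 5673 and 3973 in the stem gate, although their median total was larger, at 25045 and 16466.5 counts, against 19047 and 13368 counts.

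**Figure D1:**
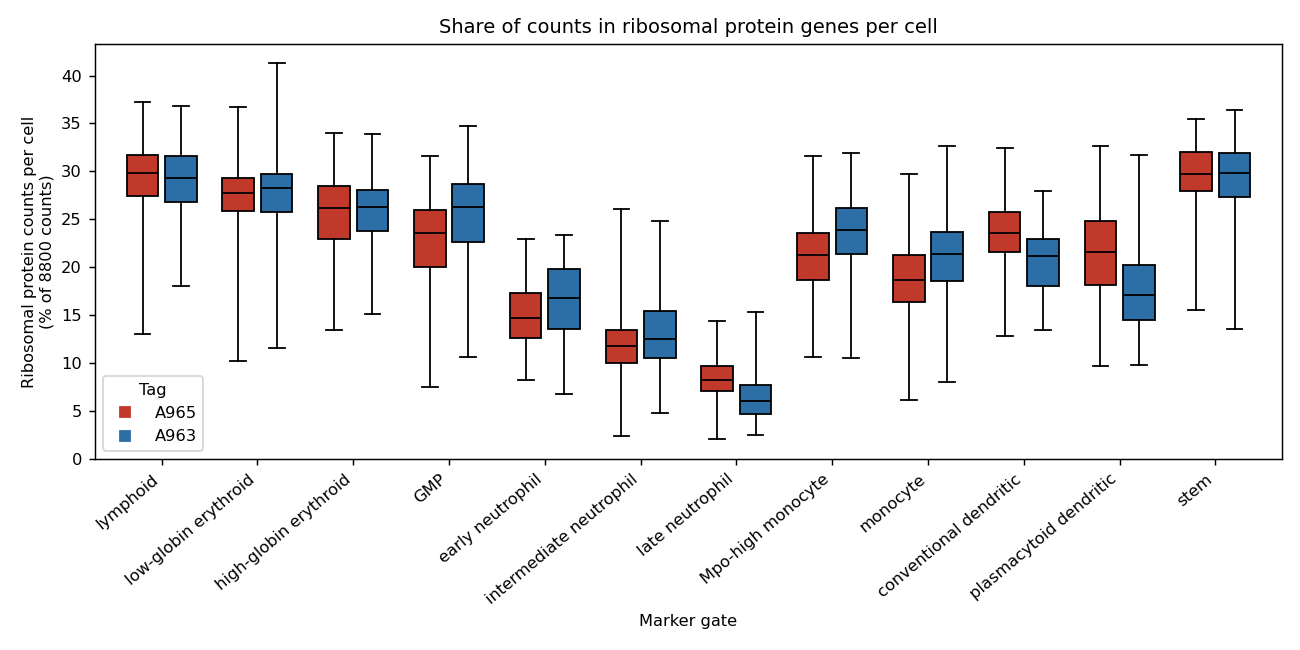
Percent of a cell's counts in the ribosomal protein genes, by marker gate, in A965 (left of each pair) and A963 cells (right) thinned to 8800 counts, with boxes for quartiles, lines for medians and whiskers to the lowest and highest cell. The late neutrophil gate sits lowest, at medians of 8.24% in A965 and 5.99% in A963, against 29.8% and 29.9% in the stem gate.

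Set against the stem gate, the summed member level in late neutrophils was 0.293 times as high in A965 (interval 0.292 to 0.293) and 0.232 times in A963 (0.232 to 0.233). In each tag 88 of 93 members were called lower, where 24.8% of all genes were called lower in A965 and 24.2% in A963. Among genes of at least 50 CPM the background was 53.6% in A965 and 50.3% in A963, and 87 of 87 members of that level were called lower in each tag. When libraries were scaled on the median gene, the shift was -1.31 in A965 and -1.16 in A963 on the log2 scale, and relative to it the member total was -0.46 in A965 and -0.94 in A963. With that scaling 38 members in A965 and 72 in A963 were called lower.

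Both subunits shared the low level of late neutrophils. Of 51 large-subunit members all 51 were called lower in each tag, with a median log2 ratio over the stem gate of -1.82 in A965 and -2.09 in A963. Of 38 small-subunit members 37 were called lower, with medians of -1.74 and -2.07, the exception being the processed copy Rps4l. Rpl3, a large-subunit protein near the peptidyl transferase centre, was at 472 CPM in A965 late neutrophils and at 340 CPM in those of A963, against 2505 CPM and 2376 CPM in the stem gate, ratios of 0.188 and 0.143. Rpl41, the smallest ribosomal protein, kept a ratio of 0.499 in A965 and 0.340 in A963. Rpsa, the laminin receptor protein of the small subunit, had 0.444 and 0.264. The 3 proteins of the stalk that recruits elongation factors, Rplp0, Rplp1 and Rplp2, had 0.366, 0.294 and 0.378 in A965 and 0.230, 0.170 and 0.296 in A963. Rps19 stood at 0.296 in A965 and 0.223 in A963, Rps14, lowered in the human 5q- syndrome, at 0.265 and 0.212, and Rps6, the substrate of the S6 kinases, at 0.249 and 0.181. Rpl5 and Rpl11, which bind 5S rRNA and can restrain the p53 ligase Mdm2, had 0.226 and 0.238 in A965 and 0.198 and 0.227 in A963. Rps3, which also acts in DNA repair, had 0.302 and 0.257, Rpl13a, which also takes part in translational silencing in human monocytes, had 0.278 and 0.196, and Rpl38, needed for translation of Hox mRNAs in mouse embryos, had 0.376 and 0.303.

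The other gates stood between these extremes. In intermediate neutrophils the summed member level was 0.425 times that of the stem gate in A965 and 0.495 times in A963. Of the 87 members of at least 50 CPM, 83 and 84 were called lower there, against backgrounds of 37.2% and 33.8% of all genes of that level. Early neutrophils had 0.543 and 0.600, with 76 and 65 of 87 members lower against 21.9% and 20.9%. Monocytes had 0.680 in A965 and 0.745 in A963, with 43 and 14 lower against 17.8% and 12.5%, so that in A963 the count was near the background. Mpo-high monocytes had 0.731 and 0.829, with 25 and 2 lower against 11.9% and 10.5%. Plasmacytoid dendritic cells had 0.751 and 0.619, with 19 and 62 lower against 12.3% and 13.5%, and conventional dendritic cells 0.810 and 0.718, with 7 and 29 lower against 17.2% and 15.6%. GMP cells had 0.785 in A965, with 9 members lower against 8.53%, and 0.885 in A963, with 0 against 8.22%. High-globin erythroid, low-globin erythroid and lymphoid cells had ratios of 0.887, 0.938 and 0.994 in A965 and 0.911, 0.957 and 0.993 in A963. The lymphoid gate is not told apart from the stem gate: its difference in A965 was -0.01 on the log2 scale and kept its sign in 1 of 8 other settings, which reached 0.10. On total counts all 11 gates were lower than the stem gate in both tags, but with median-gene scaling 6 were: the sign turned in both tags for the erythroid and lymphoid gates, to +0.22 in A965 and +0.55 in A963 for high-globin erythroid cells, and in A963 alone for the GMP and Mpo-high monocyte gates. Under that scaling the early neutrophil total remained lower by log2 values of -0.58 in A965 and -0.61 in A963, and the intermediate neutrophil total by -0.39 and -0.36, against -1.23 and -1.01 on total counts. Monocytes had -0.11 and -0.08, against -0.56 and -0.42 on total counts. Conventional dendritic cells had -0.11 and -0.33, and plasmacytoid dendritic cells -0.40 and -0.65.

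Within the neutrophil gates the member part went down in steps as granule gene counts went up. Cells were binned by the summed counts of Camp, Ltf, Ngp, Lcn2, Cd177, Retnlg and Mmp8 per 10000 counts. For scores of 300 to 600, 600 to 1000, 1000 to 1250, 1250 to 1500 and 1500 or more, the members held 14.2%, 11.4%, 9.12%, 7.98% and 7.02% of A965 counts. In A963 the same bins held 17.3%, 12.4%, 8.63%, 6.63% and 5.29%. A965 was therefore below A963 in the 2 lowest bins and above it in the 3 highest. Since granule counts are part of the total, a higher score by itself leaves less for other genes. Rps2, a small-subunit protein near the mRNA entry channel, had 2602, 2161, 1618, 1314 and 1085 CPM in A965 and 2610, 1515, 933, 575 and 405 CPM in A963 over the bins. The lowest bin was thus alike in the 2 tags for Rps2, and the gap widened with the score. Camp, the cathelicidin gene, ended at 58626 CPM in A965 and 71038 CPM in A963 in the highest bin, which held 102 A965 and 479 A963 cells. The 3 highest bins make up the late neutrophil gate. Over both tags, Retnlg stood at 100 to 661 CPM in these bins and Mmp8 at 5.40 to 49.8 CPM. The cell cycle gene Mki67 was still at 129 to 372 CPM.

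The relative make-up of the ribosomal protein mRNA pool was measured as each member's percentage of the member counts, which other genes taking counts does not move. It used the 89 members with at least 10 CPM on average over the gates. Of 979 pairs of a member and a gate, 26, or 2.66%, differed at least 1.5-fold from the stem gate in the same direction in both tags, 24 up and 2 down. They came from 9 members, and the other 80 had no such pair in any of the 11 gates. Rpl36al made up 8 of the pairs, Rps27l 7 and Rps4l 5. Leaving out low members and names ending in l or l1 left 5 pairs. The standard deviation of the log2 change over members was smallest in the lymphoid gate, at 0.11 in A965 and 0.09 in A963, and 0.35 and 0.42 in late neutrophils.

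**Figure D2:**
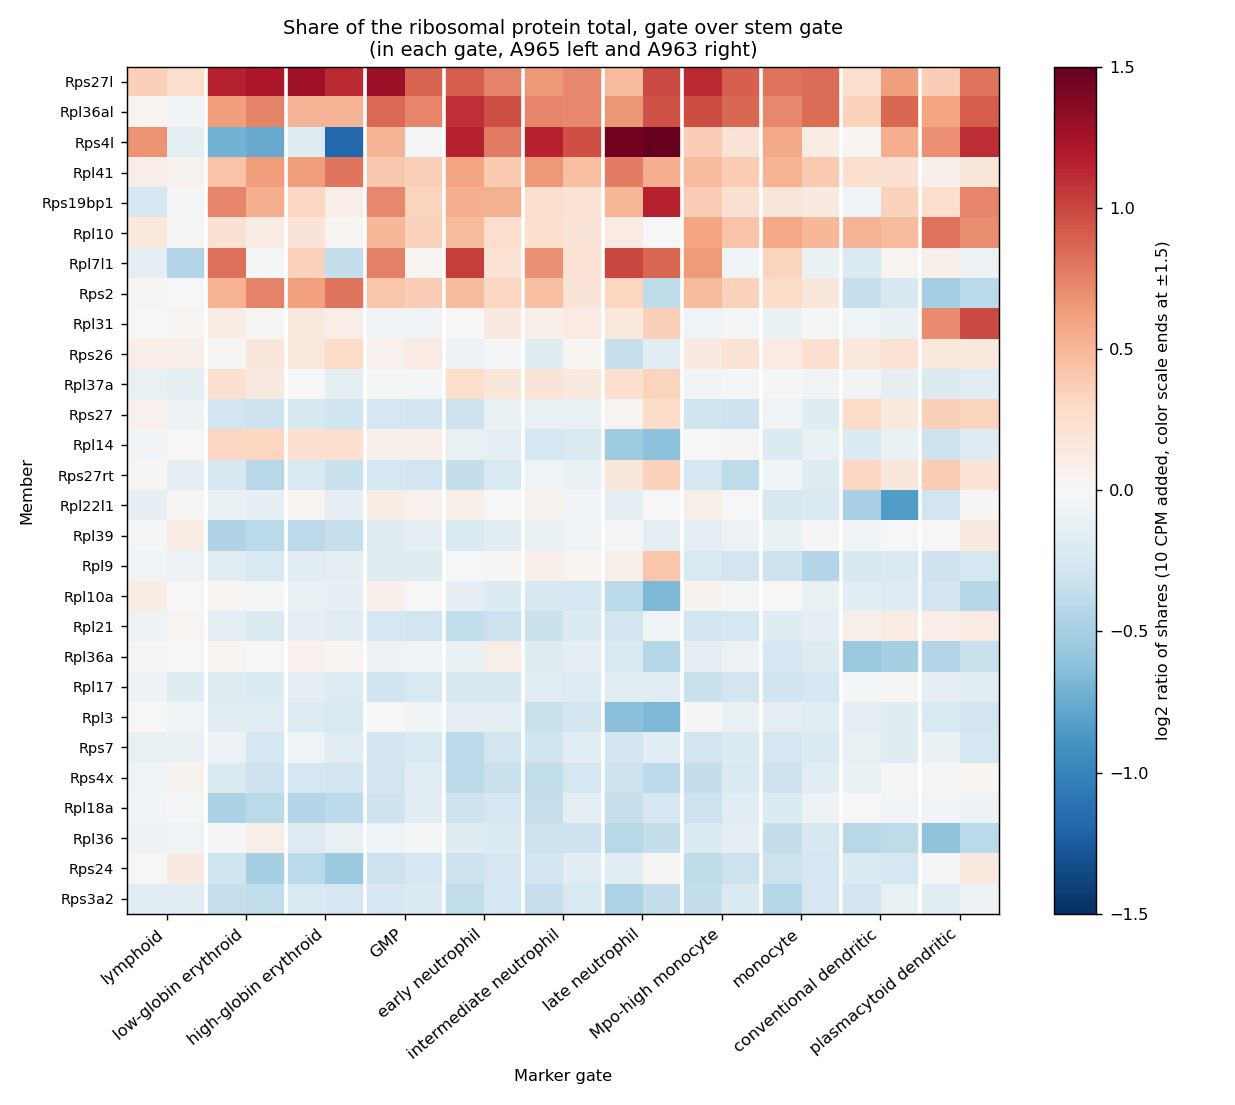
Change in each named member's share of the ribosomal protein counts relative to the stem gate (log2 scale, colour) for named members and 11 gates, with A965 left and A963 right within each gate. Rps27l and Rpl36al lie above the stem gate in most columns of both tags.

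Rps27l and Rpl36al are each 1 of a pair of expressed genes for nearly the same protein. Rps27l is a p53-responsive relative of Rps27, and Rpl36al is a copy of the X-linked Rpl36a. Their start regions, from RefSeq on build GRCm38.p6, are shown because the pairs change balance between cell types. Each runs 30 bases to either side of the annotated start, the most upstream one where RefSeq gives several. Capitals mark a run of at least 8 pyrimidines that reaches within 5 bases of that start. The windows are chr9:66946056-66946115 (+ strand) for Rps27l, chr3:90213619-90213678 (- strand) for Rps27, chr12:69184038-69184097 (- strand) for Rpl36al and chrX:134585624-134585683 (+ strand) for Rpl36a.
Rps27l: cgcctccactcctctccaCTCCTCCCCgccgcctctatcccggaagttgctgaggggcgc
Rps27: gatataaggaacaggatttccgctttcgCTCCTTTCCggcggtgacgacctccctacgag
Rpl36al: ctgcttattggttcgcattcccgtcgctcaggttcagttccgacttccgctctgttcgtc
Rpl36a: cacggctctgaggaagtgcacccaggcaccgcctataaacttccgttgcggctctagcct
Both Rps27 genes hold such a run, and neither Rpl36a gene does in this window. In Rps27 the run spans the annotated start, and in Rps27l it ends upstream of it.

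In low-globin erythroid cells Rps27l supplied 52.4% of the Rps27l plus Rps27 counts in A965 (interval 51.1 to 53.7) and 52.6% in A963, and in high-globin erythroid cells 53.8% and 50.6%. GMP cells had 54.3% and 46.3%, and Mpo-high monocytes 52.2% and 47.0%. Conventional dendritic cells, at 28.5% and 34.7%, plasmacytoid dendritic cells, at 29.0% and 34.8%, and late neutrophils, at 34.96% and 38.4%, stood lower. The stem gate had 28.7% in A965 (interval 27.1 to 30.3) and 27.5% in A963. The level of Rps27l itself was higher in low-globin erythroid cells, with 826 CPM in A965 and 879 CPM in A963, against 391 CPM and 390 CPM in the stem gate, ratios of 2.11 and 2.25. Only the change of such a pair between gates is read here, since 3′ counts of different genes do not measure their relative amounts.

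Rpl36al followed another order. In early neutrophils it supplied 50.6% of the Rpl36al plus Rpl36a counts in A965 and 42.0% in A963, and in late neutrophils 45.0% and 50.6%. Mpo-high monocytes had 49.2% and 43.2%. The dendritic gates had 45.4% and 50.2% for conventional and 47.5% and 48.2% for plasmacytoid dendritic cells. Lymphoid cells, at 31.6% and 27.4%, were close to the stem gate, at 30.6% and 28.0%. Rpl36al lies at chr12:69182731-69184083 (- strand, GRCm38), and reads that match both copies may have been counted for either gene. Rpl22l1 varied less against Rpl22, at 28.3% to 36.9% of the pair in A965 and 23.9% to 40.2% in A963, with 35.1% and 37.5% in the stem gate.

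**Figure D3:**
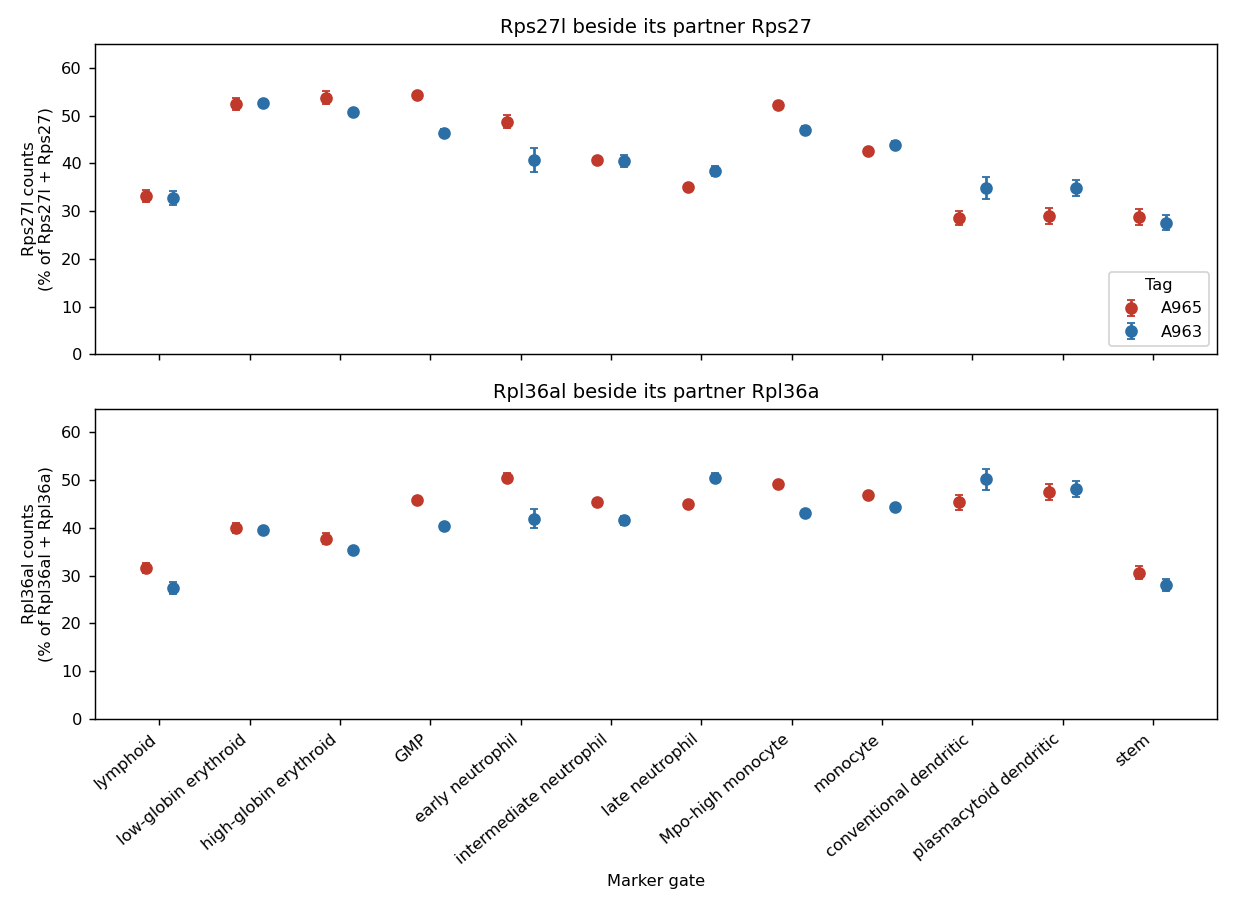
Rps27l as a percent of Rps27l plus Rps27 counts, and Rpl36al as a percent of Rpl36al plus Rpl36a counts, by gate in A965 and A963, with exact 95% binomial bars. In both tags Rps27l is above 50% in the erythroid gates, against 28.7% in A965 and 27.5% in A963 of the stem gate, while Rpl36al is at 47.5% and 48.2% in the plasmacytoid dendritic gate, against 30.6% and 28.0%.

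Of the other members, a few differed at least 1.5-fold from the stem gate in both tags in 1 gate only. Shifts in the same direction lay in other gates too, and for Rps2 and Rpl31 there were also shifts the other way. Rpl10, an X-linked large-subunit protein needed for subunit joining, took 1.526% of member counts in A965 and 1.4996% in A963 plasmacytoid dendritic cells, against 0.868% and 0.925% in the stem gate. It was also above the stem gate in monocytes, at 1.30% and 1.31%, and in Mpo-high monocytes, at 1.31% and 1.25%. Conventional dendritic cells had 1.24% and 1.29% for Rpl10. Rpl31, which lies near the exit tunnel of the large subunit, took 1.55% in A965 and 1.97% in A963 plasmacytoid dendritic cells, against 0.948% and 0.993% in the stem gate. In high-globin erythroid cells Rps2 took 2.09% in A965 and 2.08% in A963, against 1.37% and 1.19% in the stem gate, and Rpl41 took 1.86% and 1.84%, against 1.20% and 1.06%. Low-globin erythroid cells had 1.97% and 1.99% for Rps2 and 1.62% and 1.64% for Rpl41. Late neutrophils had 2.05% and 1.55% for Rpl41. Rps24, a small-subunit protein mutated in some human Diamond-Blackfan anaemia, did not reach 1.5-fold in high-globin erythroid cells of either tag. It took 1.52% and 1.51% there, against 2.01% and 2.22% in the stem gate. Its share was also below that of the stem gate in GMP cells and both monocyte gates. Rpl3 was the canonical member farthest below the stem gate, with 0.553% and 0.507% in late neutrophils, against 0.860% and 0.824%.

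Over all cells, the members held 18.3% of A965 counts and 20.6% of A963 counts, a ratio of 0.884 (interval 0.8836 to 0.8846). The median member had a log2 ratio of -0.19, and 90 of 93 were below 0. The median was -0.003 for all genes and -0.05 for the 2550 genes of at least 50 CPM, a level that 87 members reached. No member was called, where 1.48% of all genes were. Of genes of at least 50 CPM, 2.2% were called lower and 3.06% higher. Relative to a scaling on the median gene, itself shifted by -0.08, the member total stood at -0.10. At the high end, Rpsa stood at 3489 CPM in A965, against 3478 CPM in A963 (ratio 1.003), and Rpl41 at 2999 CPM, against 3006 CPM, while Rpl3l, Rps23rg1 and Rpl32l had under 2 CPM in each tag. At the low end, Rps7, a small-subunit protein, stood at 1792 CPM in A965, against 2307 CPM in A963 (ratio 0.777). Rps24 stood at 3073 CPM, against 3862 CPM (0.796), and the X-linked Rps4x at 2894 CPM, against 3608 CPM (0.802). Rps3a3 and Rpl31 followed, with ratios of 0.789 and 0.806.

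The total hides opposite differences inside the gates. In late neutrophils the members were 1.27 times as high in A965 as in A963 (interval 1.269 to 1.274), in plasmacytoid dendritic cells 1.22 times and in conventional dendritic cells 1.14 times. In intermediate neutrophils the ratio was 0.868, in Mpo-high monocytes 0.891, in GMP cells 0.896, in early neutrophils 0.914 and in monocytes 0.921. Lymphoid, stem, low-globin erythroid and high-globin erythroid cells had 1.01, 1.01, 0.990 and 0.984. The sign for the stem gate turned with median-gene scaling and with halved gate thresholds, that for low-globin erythroid cells turned with halved thresholds, and that for intermediate neutrophils turned with doubled thresholds, to +0.27. Median depth differed between the tags within gates, with 52678 counts in A965 and 30859.5 in A963 GMP cells, for example, and its part was not tested beyond cells of a fixed depth. Median granule scores in the late neutrophil gate were 1243 in A965 and 1432 in A963.

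In late neutrophils 8 members were called higher in A965, where 0.477% of all genes and 2.85% of genes of at least 50 CPM were called higher. For Rps2 the A965 level was 1461 CPM and the A963 level 613 CPM, a ratio of 2.38. Rplp1 stood at 2441 CPM, against 1333 CPM in A963, Rpsa at 2108 CPM, against 1207 CPM, and Rpl41 at 1748 CPM, against 1039 CPM, giving ratios of 1.83, 1.75 and 1.68. Rplp0, Rps12l1, Rps12 and Rpl12 had ratios of 1.64, 1.59, 1.57 and 1.52. In all, 86 members were above 0 and 7 below, among them Rps27l, with a ratio of 0.872. Outside this gate only 3 member calls were made over the other 11 gates: Rps4l was called higher in A965 high-globin erythroid cells, where 0.815% of all genes were, and lower in A965 conventional dendritic cells, where 3.36% were, and Rpl3l was called lower in A965 plasmacytoid dendritic cells, where 2.62% were.

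The balance among members also differed between the tags, less so in the erythroid gates than elsewhere for most of the members named here. As a share of member counts, Rps2 was higher in A965 in 11 of 12 gates, with a median log2 difference of 0.23 and a range of -0.02 to 0.90, and Rpl41 was higher in 11 of 12, with a median of 0.23. Rplp1 and Rpsa were higher in 10, with medians of 0.16 and 0.14, and Rpl3 in 12 of 12, with a median of 0.10. Rps24 was lower in A965 in 10 of 12 gates, with a median of -0.21, Rps7 in 10 of 12, with -0.17, and Rps4x in 10 of 12, with -0.14. Rps3a1, a small-subunit protein near the mRNA exit, was lower in 12 of 12, with -0.14, and so was its processed copy Rps3a2. In low-globin and high-globin erythroid cells the differences were 0.05 and 0.00 for Rps24, -0.02 and 0.01 for Rps2, -0.02 and 0.01 for Rpl41, -0.08 and -0.04 for Rplp1, -0.04 and -0.00 for Rpsa, 0.03 and -0.03 for Rps7, and 0.03 and -0.05 for Rps4x. The gates share the same library and the same mice, so they are not independent repeats.

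The start regions of the 3 members named first on either side follow in the same form, at chr17:24720033-24720092 (+ strand) for Rps2, chr10:128549139-128549198 (- strand) for Rpl41 and chr14:24490648-24490707 (+ strand) for Rps24.
Rps2: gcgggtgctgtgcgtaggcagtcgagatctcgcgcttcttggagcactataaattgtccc
Rpl41: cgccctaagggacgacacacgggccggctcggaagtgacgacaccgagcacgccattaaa
Rps24: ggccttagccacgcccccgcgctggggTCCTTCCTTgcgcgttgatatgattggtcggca
Rps24 holds a pyrimidine run at the annotated start, and for Rps2 and Rpl41 none lies in this window. The run does not mark the members lower in A965: Rps7, Rps4x and Rps3a1 have none at the annotated start. Rpsa, higher in A965, has none there either. A link between such runs and the tag differences was not tested.

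Over the whole set, 68 of 93 members matched a RefSeq promoter of 300 bases, again taken at the most upstream start of each gene. A run of at least 8 pyrimidines reaching within 5 bases of the start was present in 23 of them, or 33.8%, against 9.64% of all 27025 promoters. A C at the start base was present in 24, or 35.3%, against 16.2%. Read on both strands, CCGGAAG, the core bound by ETS factors such as GABP, was in 25, or 36.8%, against 9.14%. AAGATGG, the core of the YY1 motif, was in 10, or 14.7%, against 6.46%. GGGCGG, the GC box of Sp1, was in 39, or 57.4%, against 35.9%, and TCTCGCG in 13, or 19.1%, against 2.72%. A match in this window is a description of its letters, and annotated starts can miss the true start by a few bases.

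The 3 lightly loaded tags gave the same quantities in far fewer cells. Members held 20.9% of A961 counts, 21.3% of A962 counts and 18.4% of A964 counts. A961 over A962 gave a ratio of 0.979, with 0 members called where 4.11% of all genes were. A961 over A964 gave 1.14, with 1 member called where 5.24% were, and A962 over A964 gave 1.16, with 1 called where 4.9% were. The member was Rps19bp1 in both, with 44.8 CPM in A961 and 33.9 CPM in A962, against 16.1 CPM in A964. These pairs share their tags and are not separate results. Xist had 486 CPM in A961, 409 CPM in A962 and 59.7 CPM in A964, and Y-linked genes 39.2, 21.0 and 86.0 CPM, so A964 stood with A965 on these genes.

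In monocytes Rps2 took 1.35% of member counts in A961, 1.32% in A962 and 1.71% in A964, beside 1.66% in A965 and 1.34% in A963. In Mpo-high monocytes it took 1.58%, 1.60% and 1.82%, beside 1.90% and 1.51%. For Rps24 the order was turned: 1.76%, 1.67% and 1.56% in monocytes of A961, A962 and A964, beside 1.61% in A965 and 1.86% in A963. In Mpo-high monocytes Rps24 had 1.83%, 1.75% and 1.505%, beside 1.54% and 1.77%. For these 2 genes A964 was nearer to A965, and A961 and A962 nearer to A963, except that Rps24 in A962 monocytes was nearer to A965. Rpl41 broke the pattern in 1 case, with 1.72% in A962 monocytes, near the 1.79% of A964 and the 1.72% of A965, while A961 had 1.31% and A963 1.40%. The A962 monocyte values rest on 15 cells. A962 kept 104 cells although 100 were loaded, and A961 and A964 kept 68 and 73 of 100. A965 and A963 kept 5567 and 4716 of 15000. Whether cells of the heavily loaded tags were assigned to the lightly loaded tags was not tested.

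**Figure D4:**
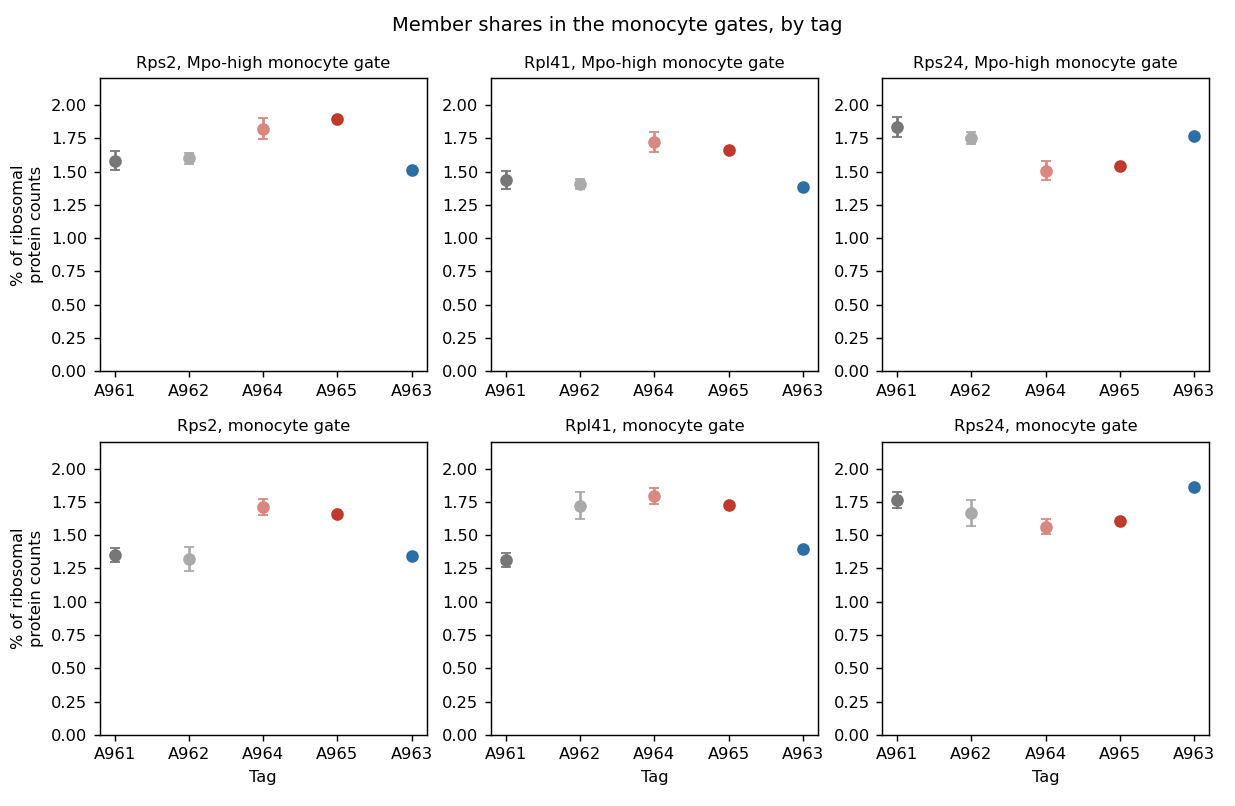
Rps2, Rpl41 and Rps24 as a percent of the ribosomal protein counts in Mpo-high monocyte and monocyte cells of tags A961, A962, A964, A965 and A963, with exact 95% binomial bars. For Rps2 and Rps24 the A964 values lie beside A965 and the A961 and A962 values nearer to A963, except for Rps24 in A962 monocytes.

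Other genes of the translation machinery separated into those that moved with the members and those that did not. Of 19 translation factors and other TOP genes, all 19 were called lower in late neutrophils than in the stem gate in each tag, and their summed level had ratios of 0.252 in A965 and 0.215 in A963. Eef1a1, which brings tRNAs to the ribosome, was at 1873 CPM in A965 late neutrophils and at 1154 CPM in those of A963, against 8042 CPM and 7813 CPM in the stem gate. Ribosome biogenesis genes were lower still, with ratios of 0.112 and 0.148 and 23 and 21 of 24 called lower. Among them, Fbl, the rRNA methyltransferase fibrillarin, had 10.6 CPM and 17.1 CPM, against 189 CPM and 214 CPM. Mitochondrial ribosomal proteins had ratios of 0.489 and 0.543, with 61 and 58 of 83 called lower. Of genes of at least 50 CPM, 53.6% in A965 and 50.3% in A963 were called lower. The summed level of 10 cell cycle genes was higher, at 1.32 and 1.56, with 3 and 5 of 10 called higher and 1 called lower in each tag. Called higher were 4.26% and 4.55% of all genes, and 16.9% and 16.5% of genes of at least 50 CPM. Of 8 translational control genes, 4 and 2 were called lower and 1 in each tag higher, with ratios of 0.841 and 0.997. The 2 of 8 in A963 is near the 24.2% of all genes called lower there. The 4 of 8 in A965 lies between the 24.8% of all genes and the 53.6% of genes of at least 50 CPM.

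In low-globin erythroid cells the lists came apart. Biogenesis genes were 1.93 times as high as in the stem gate in A965 and 1.73 times in A963, with 18 and 15 of 24 called higher, and mitochondrial ribosomal proteins 1.76 and 1.81 times, with 45 and 50 of 83 called higher. Of all genes 8.16% in A965 and 7.88% in A963 were called higher there, and of genes of at least 50 CPM 25.2% and 27.9%. The cytosolic members, at 0.938 and 0.957, and the translation factors, at 0.974 and 0.996, stood near the stem level. In monocytes biogenesis genes had ratios of 0.432 and 0.592, below the 0.680 and 0.745 of the members, and mitochondrial ribosomal proteins 1.04 and 1.11. Between the tags over all cells, biogenesis genes had a ratio of 0.761 in A965 over A963, with all 24 below 0 and 1, Nop58, called lower, where 0.861% of all genes were. In late neutrophils, where the members were higher in A965, biogenesis genes had 0.734 and translation factors 1.22, with Eef1a1 and Eef2 called higher. The -ps rows followed the members, with late neutrophil ratios over the stem gate of 0.294 and 0.234.

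Across the 24 points of 12 gates and 2 tags, 81 members had a Pearson correlation of at least 0.9 with the summed member level on the log2(CPM + 10) scale. That sum contains each member, so part of the likeness is built in. How many other genes reached 0.9 is not given here, so the count does not set the members apart. The lowest members were Rps4l at -0.14, Rpl3l at 0.05, Rpl39l at 0.08, Rps23rg1 at 0.26 and Rpl32l at 0.41. Next came Rpl7l1 at 0.72, Rpl36al, Rps19bp1 and Rps27l at 0.80, Rps2 at 0.85 and Rpl41 at 0.88. Of 2524 other genes of at least 50 CPM, the most alike with an established gene name were Eef1b2, an elongation factor subunit, and Rack1, a scaffold on the small subunit, both at 0.99. The others of the first 10 carry Gm names, led by Gm7536 at 0.99. The points share 1 library and their depth differs, so these values describe these cells only. Most members were seen in single cells: at 8800 counts the median cell of either tag held counts of 85 of 93 members, a median late neutrophil 82 in A965 and 79 in A963, and 4 members were detected in under 5% of cells.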

How the data were processed

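The deposited table holds whole-number counts per gene and cell from 1 pooled 3′ library made on the BD Rhapsody system with TAS-Seq amplification, per the labels' protocols. GRCm38, Seurat 4.2.0 and R 4.2.1 are named by the submitters' processing notes, without a role, and the aligner, the counter and the annotation are not given in the sources used here. Each read carried a molecular identifier, per the labels, but whether the deposited counts are molecules or reads is not stated. Values of 2 were 54.7% as frequent as values of 1.

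Of 10731 cells, the authors named 190 doublets and 6 not-detected. Of the 10535 others, 10528 passed a filter of 500 or more genes and 20% or less mitochondrial counts. These held 8822 to 140994 counts. Scrublet (scanpy 1.11.5) marked 227 of them, or 2.16%, which were kept. Gates required summed marker counts per 10000 of at least 3 (stem), 6 (lymphoid), 30 (erythroid; high-globin from 100 globin counts), 50 (monocyte and conventional dendritic), 40 (plasmacytoid dendritic), 75 (GMP genes, also for Mpo-high monocytes), 30 (early neutrophil) and 300 (later neutrophil, late from 1000). Cells in several gates (485) or in none (1081) were left out. The thresholds were set after the data had been seen, and the members and lists were chosen with earlier results of these data known.

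Counts were summed per gate and tag, scaled to CPM and compared as ratios with exact 95% intervals. No test was run. Fold calls used log2(CPM + 10). Shares of member counts were limited to 89 members of at least 10 CPM after the data had been seen, since 10 added CPM distorts rarer ones. Members were named by a fixed rule: the 5 highest and 5 lowest tag ratios, the 3 shares farthest from stem per gate and direction, paralog pairs, members with roles outside the ribosome or in disease, and the stalk proteins with Rpsa. Rps12l1, Rps12, Rpl12 and Rpl41's promoter were named after their values were seen. Some results that the rule and the lists would add are not reported here. The ratio step was tested on simulated data. Python 3.11.15, scipy 1.17.1, pandas 2.3.3 and edgeR 4.0.16 (TMM alone) were used. Alternatives were other scalings, denominators, added CPM, thinning, doublet removal, averaging over cells and gate thresholds.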

Additional observations from a re-analysis of the deposited data

How the results depend on the processing

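The median member log2 ratio of A965 over A963 over all cells, -0.185, was -0.106 with median-of-ratios scaling, -0.111 with TMM, -0.193 with totals free of marker and mitochondrial genes and the most abundant transcript, -0.189 with 1 CPM added, -0.192 for members of at least 10 CPM, -0.098 in thinned cells and -0.102 as a mean over cells, below 0 throughout. Totals without the 100 most abundant other genes, an alternative chosen after seeing the data like the depth window and the scalings against the stem gate, gave -0.120. Members called between the tags within gates, 11, numbered 28 with median-of-ratios scaling, 27 with TMM, 24 with 1 CPM added, 6 with doubled and 5 with halved gate thresholds, and 6 in cells of 15000 to 40000 counts, where 3 gates in place of 5 were higher in A965, fewer gates having enough cells. Calls between the lightly loaded tags, 2, numbered 5 with 1 CPM added and 1 as a mean over cells. Gates lower than stem in both tags, 11, numbered 6 with either scaling, and A965 members lower in late neutrophils, 88, numbered 38 with either. Totals without marker and mitochondrial genes and the most abundant transcript gave median member parts of 18.9% in A965 and 22.6% in A963, against 17.4% and 20.6%. Leaving out low members and names ending in l or l1 left 5 of 26 share differences. Beyond what these constructions remove, the cause was not tested. Of 38 compared totals, 27 kept their sign in every setting. Doubled thresholds left too few A965 stem cells for a value against the stem gate, while most A963 gates kept one. No paired analysis was possible because there was 1 library and the tags carry no replicate numbers. The lightly loaded tags limit depth, with 11 to 42 cells per monocyte gate.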
